A study of Rattus norvegicus with 6 samples.

Results

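Cultures of neonatal rat ventricular myocytes (NRVM) that received phenylephrine, TSA and a hairpin against JIP1 were compared with cultures that received phenylephrine alone, by RNA sequencing. The comparison was defined from the labels and uses 4 of the 6 libraries of the series, 2 in each group. In the group called PE here, cells were given phenylephrine and a control short hairpin RNA. In the group called PE+TSA+shJIP1, they were given phenylephrine, TSA and a short hairpin RNA against JIP1. The remaining 2 libraries (PE+TSA: phenylephrine, TSA and the control hairpin) entered the estimate of the spread and are given beside the others. All 6 received phenylephrine, for 3 days. The labels do not spell out TSA, the usual abbreviation of the histone deacetylase inhibitor trichostatin A. They write of a JIP1 knockout under genotype and of a hairpin under treatment, and the group is described by its hairpin. Both agents change at once between PE and PE+TSA+shJIP1, so their effects cannot be told apart within this comparison. Cultures without phenylephrine and cultures with the JIP1 hairpin but no TSA were not analysed here. Whether the 2 libraries of a group are separate cultures is not stated in the labels, so a p-value here reflects only how far these samples lie apart, and that spread may be technical.

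Phenylephrine stimulates alpha-1 adrenergic receptors and makes cultured cardiomyocytes enlarge and express fetal cardiac genes such as the natriuretic peptides. Histone deacetylases remove acetyl groups from histones and other proteins, and their inhibitors blunt this growth in culture while raising genes that are normally kept silent by repressor complexes, neuronal genes among them. JIP1, the product of Mapk8ip1, is a scaffold that holds together the kinases of the JNK cascade and also links cargo to the microtubule motor kinesin-1.

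Values were FPKM, a read density per transcript length and library size, and changes are differences in log2(FPKM + 1) between PE+TSA+shJIP1 and PE with the standard error (SE). This scale understates the change of genes with low values. A feature, which is a row of the table, was tested where its mean over the 6 libraries was at least 1 FPKM (10359 of 13843), and was called where its adjusted p from limma was under 0.05. FPKM keeps no read totals, so depth in reads is unknown. Low values of PE replicate 2 were most often 20.8 times those of PE replicate 1 (30 of 217 features under 0.3 FPKM in replicate 1), as they would be with 0.048 of its depth. A ratio that gives a depth of 0.0961 was nearly as frequent (27 features), so the depth is uncertain to that extent. Features with a value of 0 numbered 3667 in PE replicate 2, against 1407 to 1837 elsewhere. A value of 0 in that library therefore says little about a low gene, and the value in PE replicate 1 is given beside it. Across genes, log2 values correlated at 0.896 between the PE libraries, 0.891 between the PE+TSA+shJIP1 libraries and 0.776 to 0.854 between the groups (genes are not independent replicates).

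The features called higher under PE+TSA+shJIP1 included 10 of 26 tested neuronal features, among them Vgf and Snap25, and single genes such as Hspb1, Cryab, Ctgf and Gstp1. The 26 are the part of 43 listed neuronal features with enough signal. For genes low under PE that signal came from the libraries with TSA, so the count does not describe the list. The features called lower included 7 of 27 tested mitosis genes, 5 of 23 sarcomere genes and 6 of 22 cholesterol synthesis genes. Of 10359 features 857 were called (8.27%), of which 426 were higher (4.11%) and 431 lower (4.16%). The groups did not overlap in any of the 857, but they also did not overlap in 60.6% of all features tested (33.9% higher, 26.7% lower). The median change was 1.69 over the features called higher and -1.57 over those called lower, against 0.10 over all features tested, and 155 rose and 124 fell by at least 2 on the log2 scale. The number called differed with the libraries and features fitted: it was 4 when only the 4 libraries compared were fitted, 374 without the filter on low values, 5 and 4 without PE+TSA replicate 1 and 2, 15 and 19 without PE+TSA+shJIP1 replicate 1 and 2, and 15 without PE replicate 2. Without PE replicate 1 it was 941, with 701 higher and 240 lower and 487 shared with the 857, so the even balance of directions rests on that library. Without PE replicate 2, the gene lists described below held calls in the neuronal list (2 higher), the Nrf2 list (1 higher), the tubulin list (1 higher) and the mitosis list (1 lower), and in no other. An unadjusted p under 0.05 was reached by 3185 features (30.7%).

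**Figure D1:**
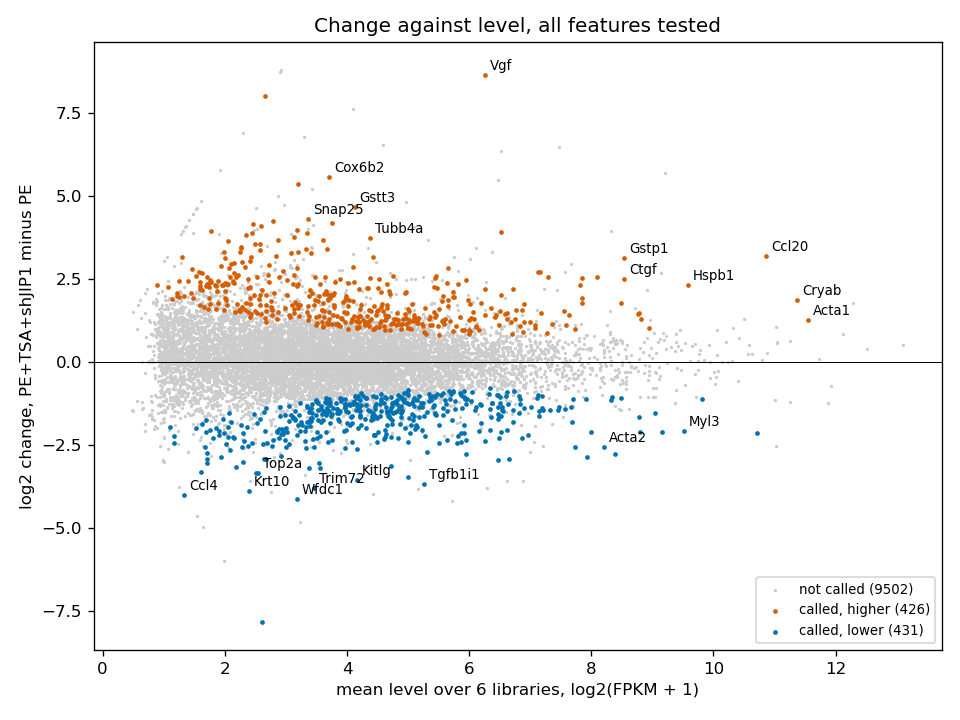
Change between PE+TSA+shJIP1 and PE (y axis, difference in log2(FPKM + 1)) against the mean level over 6 libraries (x axis, log2(FPKM + 1)) for each of 10359 features tested. Coloured points are the 426 features called higher and the 431 called lower, with Vgf (8.62) at the top.

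Mapk8ip1, the gene targeted by the hairpin, was at 3.77 and 4.39 FPKM under PE and at 1.8 and 3.65 under PE+TSA+shJIP1, with 14.6 and 17.9 under PE+TSA. Both hairpin libraries lay below both PE libraries, though replicate 2 only slightly so, and far below both PE+TSA libraries. Against PE the change was -0.49 ± 0.34 (SE), with a 95% interval of -1.32 to 0.34 (limma adjusted p = 0.369). Leaving out PE+TSA+shJIP1 replicate 1 moved it to -0.13 and leaving out replicate 2 to -0.85. Against PE+TSA the difference was -2.25, with an interval of -3.08 to -1.42 (limma adjusted p = 0.077). The unadjusted p of that difference was 0.00049. Against PE no difference beyond the spread was detected.

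Among 18 tested genes of the JNK pathway and its scaffolds, 2 rose and none fell (median change 0.46). Over all features tested 4.11% were called higher and 4.16% lower, so a count of 2 describes single genes and not the pathway. Dusp10, a phosphatase that inactivates JNK and p38, went from 8.34 and 5.6 FPKM under PE to 39.1 and 40.2 under PE+TSA+shJIP1, with 10.2 and 14.3 under PE+TSA. Its change of 2.37 ± 0.28 was called (limma adjusted p = 0.0143), and the hairpin libraries stood above all 4 others. Map3k4, a kinase at the top of the cascade, was at 9.04 and 4.58 under PE and 23.2 and 34.6 under PE+TSA+shJIP1 (1.97 ± 0.35, limma adjusted p = 0.0295). The kinases that activate JNK differed in direction without passing the test: Map2k7 was at 17.5 and 14.3 against 8.18 and 5.18 (-1.16, limma adjusted p = 0.0576), and Map2k4 at 18.3 and 13.8 against 25.9 and 31.8 (0.81, limma adjusted p = 0.0833). The JNK genes themselves, Mapk8 (0.19) and Mapk9 (-0.48), and the related scaffold gene Mapk8ip3 (0.79) had limma adjusted p-values of 0.64, 0.208 and 0.237. Of the 27 tested AP-1 and immediate early genes, transcription factors at the end of this cascade and their companions, 2 rose and 1, Klf4, fell (median 0.65, which was 0.30 without PE+TSA+shJIP1 replicate 2). Both counts are near the shares over all features. Atf3, a stress-induced factor that dimerises with Jun, was at 4.69 and 3.11 under PE, 2.01 and 1.99 under PE+TSA, and 27.4 and 36.3 under PE+TSA+shJIP1. That is 8.15-fold the mean of PE (2.75 ± 0.30, limma adjusted p = 0.0143), with no overlap. Btg2, an antiproliferative early gene, rose by 1.40 (limma adjusted p = 0.0279). Fos (0.35), Egr1 (1.43), Junb (1.29) and Myc (1.56) did not pass (limma adjusted p = 0.617, 0.0642, 0.0736 and 0.0837). Jun stands on 2 rows, at 0.03 and 4.11, neither of them called (limma adjusted p = 0.95 and 0.0503).

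Of the 12 largest rises named by the rule, Vgf, Snap25 and Scg5 belong to the neuronal list, and the others are mixed genes that were low under PE. Vgf, the precursor of secreted neuropeptides, was at 0.0691 and 0.719 FPKM under PE, 422 and 919 under PE+TSA, and 355 and 795 under PE+TSA+shJIP1. Its change of 8.62 ± 0.52 was the largest called (limma adjusted p = 0.00464). The difference from PE+TSA was -0.23 (limma adjusted p = 0.881), so the combined treatment and TSA alone gave overlapping levels. Cox6b2, the testis form of a cytochrome c oxidase subunit, had no signal in PE (listed at 0 in each library) and stood at 43.1 and 50.6 under PE+TSA+shJIP1, with 35.9 and 57.3 under PE+TSA (5.58 ± 0.29, limma adjusted p = 0.00464). Vgf and Cox6b2 were called under all 16 alternative settings. Gstt3, a glutathione transferase, was at 3.03 and 0 under PE and 46.4 and 53.4 under PE+TSA+shJIP1 (4.66 ± 0.61, limma adjusted p = 0.0165). Its level under PE+TSA was alike at 49.2 and 53.4.

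The promoters of these rising genes are printed to show what precedes the start of genes that went from near 0 to a clear level, beside those of the largest falls. They are the 3 largest rises and the 3 largest falls that stand on 1 row and have an entry in RefSeq's promoter table. Each line gives the 200 bases before the gene start, from RefSeq on the build GRCr8, 5′ to 3′ on the gene's strand. Capitals mark matches on either strand to any of 6 motifs. The CRE, bound by CREB, was searched as TGACGTCA and the AP-1 element as TGANTCA. The TATA box was searched as TATAAA and the box named CCAAT by those letters. The GC box, bound by Sp1, was searched as GGGCGG and the element of the YAP partner TEAD as GGAATG.
Vgf, chr12:25277021-25277220, minus strand: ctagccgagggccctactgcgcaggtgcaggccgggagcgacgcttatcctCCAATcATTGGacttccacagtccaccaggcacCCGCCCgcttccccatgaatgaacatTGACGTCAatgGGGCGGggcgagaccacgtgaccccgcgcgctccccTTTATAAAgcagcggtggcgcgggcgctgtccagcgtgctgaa
Cox6b2, chr1:78122671-78122870, plus strand: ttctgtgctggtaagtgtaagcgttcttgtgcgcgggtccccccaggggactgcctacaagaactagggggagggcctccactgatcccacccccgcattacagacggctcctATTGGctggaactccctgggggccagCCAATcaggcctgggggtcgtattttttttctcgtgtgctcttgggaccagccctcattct
Gstt3, chr20:12874418-12874617, plus strand: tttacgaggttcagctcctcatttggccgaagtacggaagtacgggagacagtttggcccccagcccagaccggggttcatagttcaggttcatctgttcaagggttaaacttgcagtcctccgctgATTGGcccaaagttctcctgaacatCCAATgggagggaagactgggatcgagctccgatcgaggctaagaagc
Krt10, chr10:84839161-84839360, minus strand: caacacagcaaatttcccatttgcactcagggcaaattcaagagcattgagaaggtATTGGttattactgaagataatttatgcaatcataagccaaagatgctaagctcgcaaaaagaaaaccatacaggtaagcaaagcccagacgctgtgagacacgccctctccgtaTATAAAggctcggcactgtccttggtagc
Trim72, chr1:192044020-192044219, plus strand: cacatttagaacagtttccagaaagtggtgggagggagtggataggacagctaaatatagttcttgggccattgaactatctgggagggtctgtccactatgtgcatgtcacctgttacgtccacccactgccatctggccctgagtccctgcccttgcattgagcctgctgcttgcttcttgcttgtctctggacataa
Tgfb1i1, chr1:192258906-192259105, plus strand: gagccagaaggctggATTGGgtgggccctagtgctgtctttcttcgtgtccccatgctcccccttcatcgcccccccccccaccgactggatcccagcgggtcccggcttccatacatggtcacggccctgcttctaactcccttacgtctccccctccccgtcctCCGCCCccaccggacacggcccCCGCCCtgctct
The Vgf window holds a CRE at -90, overlapping TATA boxes at -43 and -41, CCAAT boxes at -149 and -143 and GC boxes at -116 and -79. Cox6b2 has CCAAT boxes at -87 and -61 and Gstt3 at -73 and -48. Of the falling genes, Krt10 has a TATA box at -29 and a CCAAT box at -144, Tgfb1i1 a CCAAT box at -185 and GC boxes at -34 and -12, and Trim72 none of these letters. Among 33469 windows of the same length, 1.46% hold the CRE letters, 4.97% AP-1, 10.4% the TATA box, 29.2% CCAAT, 28.6% the GC box and 9.74% TEAD. These matches describe the letters only. Wfdc1, Ccl4 and Mir6334 have no entry.

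Of 43 listed features of neuronal genes that the repressor REST is known to silence outside the nervous system, 26 had enough signal to be tested and 17 did not. Among the 26, 10 rose and none fell, with a median change of 1.57 that became 0.75 over all 43 features without the filter. A gene low under PE passes the filter through the treated libraries, so these counts describe the tested features and not the list. Snap25, a SNARE protein of vesicle release, was at 0.22 and 0 under PE, 39.3 and 49.9 under PE+TSA, and 20 and 21.8 under PE+TSA+shJIP1 (4.31 ± 0.26, limma adjusted p = 0.00464). Scg5, a chaperone of prohormone processing, had a listed value of 0 in each PE library and stood at 18.2 and 14.1 under PE+TSA+shJIP1 (4.09 ± 0.30, limma adjusted p = 0.0103). Rundc3a rose by 3.55, Syp (synaptophysin) by 1.97, Syt1 listing 2 of 2 (a calcium sensor of vesicles) by 1.92 and Mapt (tau) by 1.84. Syn1, by contrast, was at 1.04 and 3.25 against 0.144 and 3.67e-10 and did not pass (1.46, limma adjusted p = 0.0979). Rest itself had a change of 0.24 (limma adjusted p = 0.592). Over the same 26 features the median difference of PE+TSA from PE was 1.99, and in that comparison 84 of all features were called (0.811%, with 0.627% higher). Both comparisons share the PE libraries.

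Counted over all features, 11 were listed at 0 in both PE libraries and above 5 FPKM in both PE+TSA+shJIP1 libraries. They were chosen on the values that the test compares, so they are a description, and a 0 in PE replicate 2 says little. Besides Cox6b2, Scg5 and Tmem59l these were Fkbp1b, Fsd1, Mt3, Oxct2a, RGD1560394, Stmn4, Akap7 listing 3 of 3 and Ugt1a9 listing 4 of 4. All but Akap7 listing 3 had signal in at least 1 PE+TSA library. Stmn4, a stathmin that destabilises microtubules, was at 0.469 and 0.894 under PE+TSA and 6.95 and 8.94 under PE+TSA+shJIP1. Akap7 listing 3 was at 0 in the 4 libraries without the JIP1 hairpin and at 129 and 497 with it (7.99 ± 0.61, limma adjusted p = 0.0103). The other rows of Akap7, an anchoring protein of protein kinase A, were at 10.5 and 10.2 against 14.7 and 7.8 (listing 1) and at 30.8 and 11.4 against 8.93 and 27.9 (listing 2), and neither was called. Values of symbols on several rows are uncertain, because the table does not say how reads were split between them. The same holds for Lipe listing 2 of 2 (hormone-sensitive lipase), at 3.5 and 0 under PE and 80 and 90.5 under PE+TSA+shJIP1 (5.34 ± 0.80, limma adjusted p = 0.0207). Map3k14 listing 2 of 2 (3.94) is a further such row. The other largest rises were Fbxo2 (4.25), LOC502894 (4.19), Tmem59l (4.14) and Bex2 (3.96).

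Single genes of several lists stood higher in both PE+TSA+shJIP1 libraries than in each of the other 4, and they are described together for that pattern, not as a list. Hspb1, a small heat shock protein that protects actin filaments, was at 441 and 459 FPKM under PE, 429 and 458 under PE+TSA, and 2192 and 2248 under PE+TSA+shJIP1. The 4 libraries without the JIP1 hairpin were close to each other and the 2 with it lay 4.94-fold above the mean of PE (2.30 ± 0.21, limma adjusted p = 0.0115). Cryab, the small heat shock protein that chaperones desmin, was at 2389 and 1765 under PE, 1225 and 1199 under PE+TSA, and 7174 and 7675 under PE+TSA+shJIP1 (1.85 ± 0.29, limma adjusted p = 0.0222). Flnc, the muscle filamin of the Z-disc, was at 74.8 and 71.8, 37.1 and 26.6, and 222 and 232 in the same order (1.62 ± 0.22, limma adjusted p = 0.0174). Both were lowest under PE+TSA, so the difference from PE+TSA was larger than that from PE: 2.61 for Cryab (limma adjusted p = 0.0403) and 2.81 for Flnc (limma adjusted p = 0.0241), against 2.32 for Hspb1 (limma adjusted p = 0.0241). These comparisons share the PE+TSA+shJIP1 libraries. Lmcd1, a LIM protein of cardiac muscle, rose by 1.97, and Vcl (vinculin) fell by 1.02. In all, 4 of 22 tested Z-disc and mechanical stress adaptors rose and 1 fell, against 4.11% and 4.16% of all features. The groups lay apart upward in 8 and downward in 8 of the 22, against 33.9% and 26.7% of all features, so the upward count is near that share. Other members had negative changes that did not pass: Fhl2 (-1.28), Bag3 (-0.71) and the small heat shock genes Hspb6 (-0.54), Hspb7 (-1.05) and Hspb8 (-0.19), with limma adjusted p = 0.054, 0.091, 0.159, 0.308 and 0.624. The median of that list, 0.06, has no stable sign: it was -0.01 with trimmed-mean scaling, -0.18 without PE replicate 2 and -0.11 without PE+TSA+shJIP1 replicate 1. Fhl1 and Xirp2, other adaptors with a similar low point under PE+TSA, did not pass against PE: Fhl1 was at 815 and 595 under PE, 178 and 141 under PE+TSA, and 1315 and 1248 under PE+TSA+shJIP1 (0.88, limma adjusted p = 0.079). Xirp2 was at 86 and 65.6, 16.5 and 12.5, and 99.8 and 114 (0.50, limma adjusted p = 0.211). Of 17 tested cytosolic heat shock genes Hspb1 and Cryab alone were called, and the median was 0.08 (-0.03 without PE+TSA+shJIP1 replicate 2).

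Targets of YAP, the effector of the Hippo pathway that senses tension and cell contact, were among the same kind of genes. Ctgf, a matricellular growth factor that YAP and TGF-beta induce, was at 226 and 279 FPKM under PE, 110 and 186 under PE+TSA, and 1235 and 1612 under PE+TSA+shJIP1 (2.48 ± 0.32, limma adjusted p = 0.0158). Cyr61 listing 2 of 2, a relative of Ctgf, was at 89 and 78.6, 103 and 77.7, and 425 and 575 (2.55 ± 0.25, limma adjusted p = 0.0119). Its listing 1 was at 7.38 and 19.6 against 30.7 and 56.9 and was not called. Amotl2, a YAP target that binds and restrains YAP, was at 52.8 and 65.9, 68 and 69.4, and 255 and 294 (2.19 ± 0.20, limma adjusted p = 0.0115). The PE+TSA+shJIP1 libraries lay above the other 4 in each of these genes, and both PE+TSA libraries lay below both PE libraries in Ctgf. The 3 were also called against PE+TSA, by 3.29, 2.45 and 1.98 (limma adjusted p = 0.027, 0.033 and 0.0339). The other 18 of 21 tested YAP target features did not pass, and the list's median was 0.44.

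Regulators of cell growth and chromatin gave a similar picture in single genes. Ccnd2 (cyclin D2) was at 58.7 and 52.1 FPKM under PE, 34.5 and 24.9 under PE+TSA, and 311 and 214 under PE+TSA+shJIP1 (2.20 ± 0.27, limma adjusted p = 0.0152). Gadd45g, a growth-arrest gene, was at 103 and 81.9, 71.1 and 45.1, and 295 and 328 (1.75 ± 0.27, limma adjusted p = 0.0221). H3f3b, which encodes the replication-independent histone H3.3, was at 119 and 110, 177 and 167, and 522 and 632 (2.32 ± 0.20, limma adjusted p = 0.0108). Hmga1, an architectural protein that binds AT-rich DNA, went the other way, with 117 and 111 under PE, 151 and 163 under PE+TSA, and 36.3 and 39.7 under PE+TSA+shJIP1 (-1.57 ± 0.18, limma adjusted p = 0.0143). For each of these 4 genes the hairpin libraries lay outside the range of the other 4 libraries. Genes outside the naming rule, chosen after their values were seen, included Zfp36l1, an RNA-binding protein that destabilises AU-rich messages, at 71 and 63.5, 77.9 and 97.8, and 408 and 488 (2.71 ± 0.21, limma adjusted p = 0.0103). Eif4ebp1, the inhibitor of cap-dependent translation, was at 219 and 231, 153 and 144, and 44.9 and 45.8 (-2.29 ± 0.18, limma adjusted p = 0.0103). Likewise Nfic fell by 2.42, Aes by 2.09, Sumo3 by 1.95 and Snurf by 1.73. Comparing PE+TSA+shJIP1 with PE+TSA, 30 of 10359 features were called (0.29%), 19 of them higher (0.183%) and 11 lower (0.106%). That count was 0 without the filter on low values, 2 without the intensity trend and 7 to 16 when 1 library was left out.

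Of 21 tested genes known to respond to histone deacetylase inhibitors, 3 rose and 1 fell (median 0.70, and 0.31 without PE+TSA+shJIP1 replicate 2). Over all features 4.11% were called higher and 4.16% lower. H1f0, the linker histone of differentiated cells, was at 127 and 84.8 FPKM under PE, 278 and 360 under PE+TSA, and 523 and 734 under PE+TSA+shJIP1 (2.56 ± 0.30, limma adjusted p = 0.0143). The 3 groups did not overlap. Cited2, a transcriptional cofactor, rose by 1.92, Cdkn1c (the inhibitor p57) by 2.45, and Klf4 fell by 1.19. Cdkn1a (the inhibitor p21) was at 317 and 298 under PE and 221 and 329 under PE+TSA+shJIP1, which overlap (-0.19, limma adjusted p = 0.629). None of the 10 tested histone deacetylase features was called: limma gave Hdac5 (-0.77) the smallest p of the list, 0.0721 after adjustment, and the list's median was 0.65. Of 10 tested high mobility group and histone features 2 rose (the linker histone gene H1f0 and the H3.3 gene H3f3b) and 1 fell (Hmga1). Their median of 0.14 was -0.67 without PE replicate 2 and 0.96 without PE replicate 1. Gstp1, a glutathione transferase, was at 130 and 92.9 under PE, 416 and 539 under PE+TSA, and 844 and 1102 under PE+TSA+shJIP1 (3.12 ± 0.28, limma adjusted p = 0.0108). With Gstt3 and Gclc (1.36), which makes the glutathione precursor, it was 1 of 3 rises among 24 tested Nrf2 and glutathione genes, of which none fell (median 0.46, and 0.82 without PE replicate 1).

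**Figure D2:**
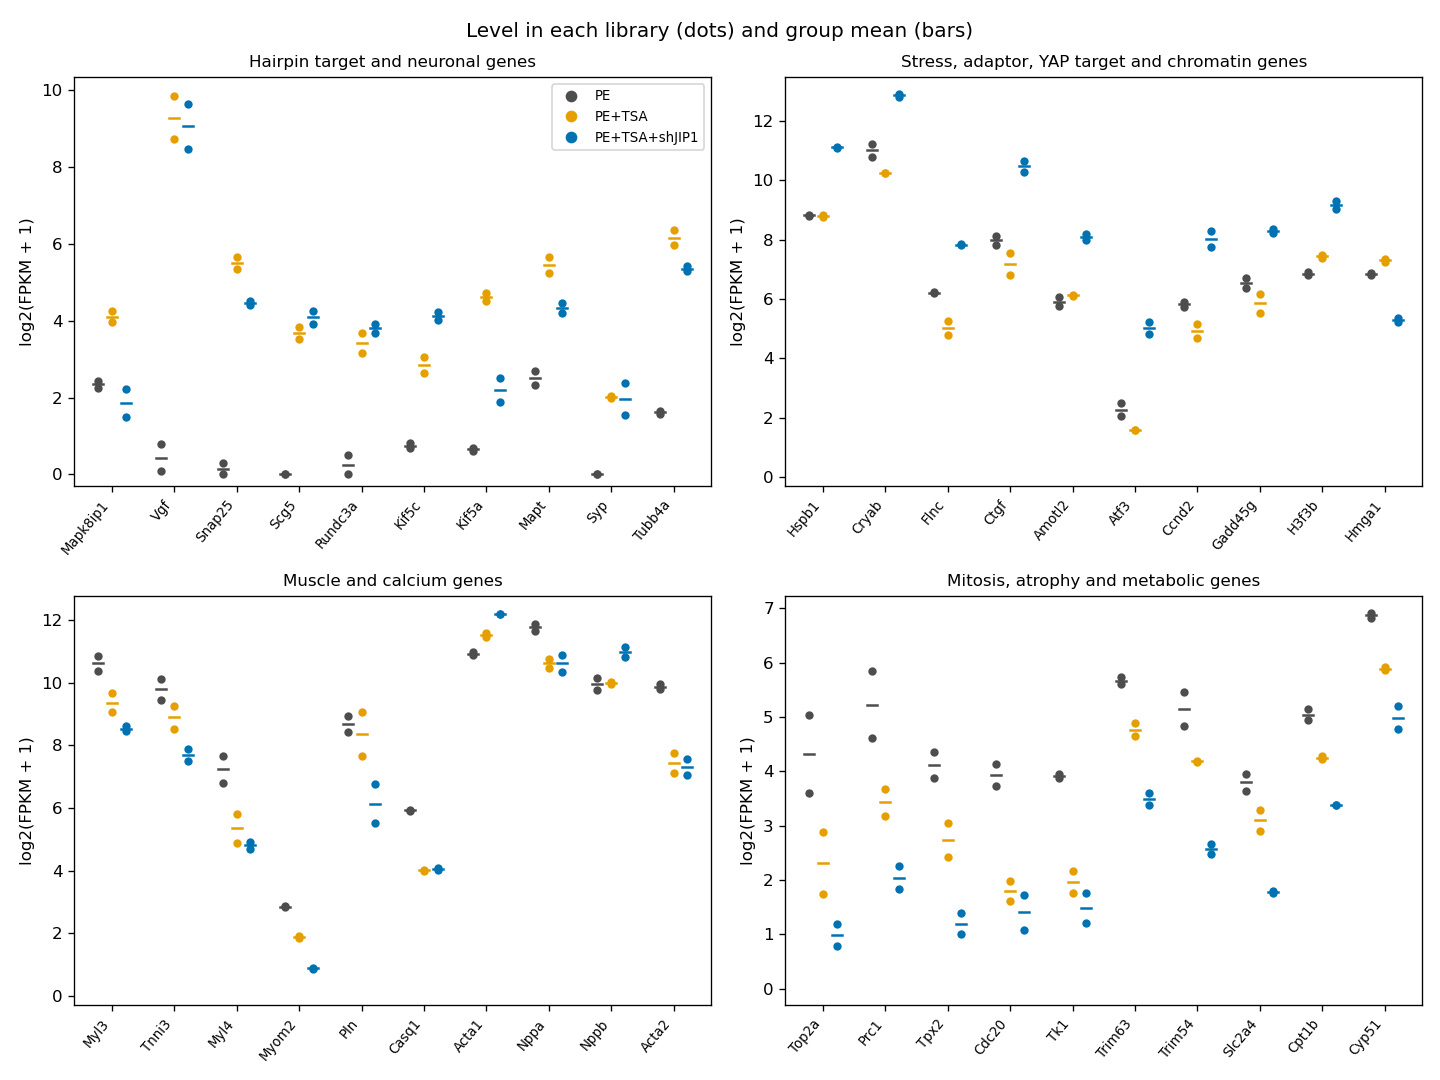
Level of named genes in each of 6 libraries (dots, y axis in log2(FPKM + 1)) with the group mean (bars), in grey for PE, orange for PE+TSA and blue for PE+TSA+shJIP1. The neuronal genes shown were higher in both groups with TSA than under PE, though Kif5a was much lower under PE+TSA+shJIP1 than under PE+TSA. Hspb1, Ctgf and Atf3 stood highest under PE+TSA+shJIP1, and the muscle and mitosis genes mostly stepped down from PE.

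Markers of the cell types that such cultures can hold were summed over tested features as a check of the label. Cardiomyocyte markers were at 20774 and 16916 FPKM under PE, 10340.5 and 5912 under PE+TSA, and 10271 and 5908 under PE+TSA+shJIP1. All 9 tested markers were lower in both PE+TSA+shJIP1 libraries than in both PE libraries (26.7% of all features were), 2 were called, and the median change was -1.23. Fibroblast markers summed to 2604 and 3625 under PE and 1123 and 1165 under PE+TSA+shJIP1 (1 of 12 rose, 3 fell, median -0.79). Smooth muscle and pericyte markers summed to 2581 and 2147 against 1332 and 1276 (1 of 12 rose, 3 fell, median -0.62). These sums include Des (desmin), counted below as a sarcomere gene too, at 860 and 747 under PE and 688 and 647 under PE+TSA+shJIP1. Des makes up a large part of the sums, so they are not a measure of smooth muscle cells alone. Endothelial markers summed to 57.4 and 68.5 against 27.2 and 36.8, with none of 6 called (median -0.32), and Vwf was at 0.166 and 0 against 0.108 and 0.0951. Macrophage and leukocyte markers summed to 36 and 36.5 against 24.1 and 19.5, with none of 9 called (median -0.41) and Cx3cr1 at 0 in both hairpin libraries. Epicardial markers summed to 46.3 and 56.4 against 30 and 24.4 (1 of 7 fell, Krt18 by 1.92, and the median was -0.18). Schwann cell markers had 4 tested features, 3 of them higher and 1 lower (median 0.72), and erythroid markers had 1 (-1.44), with none called. Ngfr, a Schwann cell marker, was at 0.0826 and 0 under PE and 1.5 and 4.55 under PE+TSA+shJIP1 (1.84, limma adjusted p = 0.0874). Another, Sox10, was at 0 in both hairpin libraries. The cultures held RNA of fibroblast and smooth muscle genes in all 6 libraries. In such bulk samples, fewer cells of a type and less RNA per cell cannot be told apart, and the part of these markers in the results below was not tested.

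Genes of the sarcomere, the contractile unit of muscle, were mostly lower: 20 of 23 had a negative change (median -1.45, and -0.84 without PE+TSA+shJIP1 replicate 2). Of the 23 tested, 5 fell and 2 rose, against 4.16% and 4.11% of all features. Myl3, the ventricular essential myosin light chain, was at 1868 and 1329.8 FPKM under PE, 825 and 530.4 under PE+TSA, and 391 and 350.04 under PE+TSA+shJIP1 (-2.09 ± 0.31, limma adjusted p = 0.0203). Tnni3, the adult cardiac troponin I, was at 1124 and 702, 618 and 366, and 237 and 179 (-2.10 ± 0.36, limma adjusted p = 0.0275). Each stepped down from group to group without overlap. Myl4 (atrial light chain) fell by 2.43, Myom2 (myomesin of the M-band) by 1.97 and Myoz2 (a Z-disc calcineurin binder) by 1.65. The rises were Cryab and Acta1, the skeletal alpha-actin that is re-expressed in hypertrophy, which was at 2043 and 1881 under PE, 2821 and 3069 under PE+TSA, and 4664 and 4703 under PE+TSA+shJIP1 (1.26 ± 0.27, limma adjusted p = 0.0442). Several highly expressed members, whose PE+TSA+shJIP1 replicates lay apart, did not pass: Actc1 was at 7177 and 5736 against 1614 and 770.2 (-2.52, limma adjusted p = 0.0597), and Tnnt2 at 7215 and 6095 against 4354 and 1835 (-1.23, limma adjusted p = 0.183). Actn2 (-0.42) and Des (-0.27) also did not pass (limma adjusted p = 0.329 and 0.478).

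The classical markers of hypertrophy did not move as a group (median -0.46). Among 22 tested, 3 rose and 1 fell, against 4.11% and 4.16% of all features. Nppa, atrial natriuretic peptide, was at 3760 and 3247 FPKM under PE, 1748 and 1428 under PE+TSA, and 1916 and 1313 under PE+TSA+shJIP1 (-1.14 ± 0.31, limma adjusted p = 0.0701). Nppb, brain natriuretic peptide, was at 1130.3 and 882 under PE, 1000.3 and 1052 under PE+TSA, and 2277 and 1816 under PE+TSA+shJIP1 (1.03 ± 0.26, limma adjusted p = 0.0636). The groups did not overlap in either gene, in opposite directions, but neither passed the threshold. Myh7, the beta myosin heavy chain, was at 488 and 498 under PE and 152 and 48 under PE+TSA+shJIP1 (-2.51 ± 0.74, limma adjusted p = 0.0832), and Myh6, the alpha chain, at 271 and 163 against 117 and 41.2 (-1.58 ± 0.84, limma adjusted p = 0.255). Uchl1, a deubiquitinase of hypertrophic heart, was at 51.4 and 48.9 under PE, 167 and 164 under PE+TSA, and 160 and 143 under PE+TSA+shJIP1 (1.57 ± 0.18, limma adjusted p = 0.0143). Of the muscle atrophy genes, 3 of 14 tested fell (median -0.65): Trim63 (MuRF1) from 47.6 and 52 to 11.1 and 9.44 (-2.17 ± 0.21, limma adjusted p = 0.0119), its relative Trim54 by 2.58, and Fbxo32 (atrogin-1) by 1.27.

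Of 19 tested calcium handling genes 4 fell and 1 rose, against 4.16% and 4.11% of all features. A negative change was found in 16 of the 19. The list had a median of -0.71 (-1.29 and -0.46 without PE+TSA+shJIP1 replicate 1 and 2). Casq1 (calsequestrin, which stores calcium) was at 59.3 and 60.6 FPKM under PE, 14.9 and 15.3 under PE+TSA, and 15.9 and 15.1 under PE+TSA+shJIP1 (-1.89 ± 0.19, limma adjusted p = 0.0122). Pln (phospholamban, which restrains the calcium pump) was at 493 and 346, 535 and 199.9, and 107 and 45.1 (-2.55 ± 0.58, limma adjusted p = 0.049). Casq1 was at like levels in both groups with TSA, and Pln was lowest in the hairpin libraries. Its cardiac relative Casq2 fell by 1.38 and Jph2, which ties the sarcoplasmic reticulum to the cell membrane, by 1.25. Fkbp1b, which stabilises the ryanodine receptor, was listed at 0 under PE and at 8.97 and 18.8 under PE+TSA+shJIP1 (3.81 ± 0.45, limma adjusted p = 0.0143). It passed the filter through the libraries with TSA. The pump gene Atp2a2 (-0.52) and the receptor gene Ryr2 (-1.11) did not pass (limma adjusted p = 0.252 and 0.157). Of 19 tested ion channel and gap junction features 2 fell, Kcnq1 listing 1 of 2 by 1.30 and Kcnk3 by 1.25, where 4.16% of all features were called lower. Kcnq1 listing 2 was at 5.63 and 6.43 against 7.9 and 9.999 (0.50, limma adjusted p = 0.258), the other direction. The list's median was -0.66 (-0.35 without PE+TSA+shJIP1 replicate 2). Of 18 tested cardiac transcription factor features (median -0.30) Hand1 alone was called, from 6.69 and 6.05 to 18.8 and 15.6 (1.30 ± 0.23, limma adjusted p = 0.0281).

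**Figure D3:**
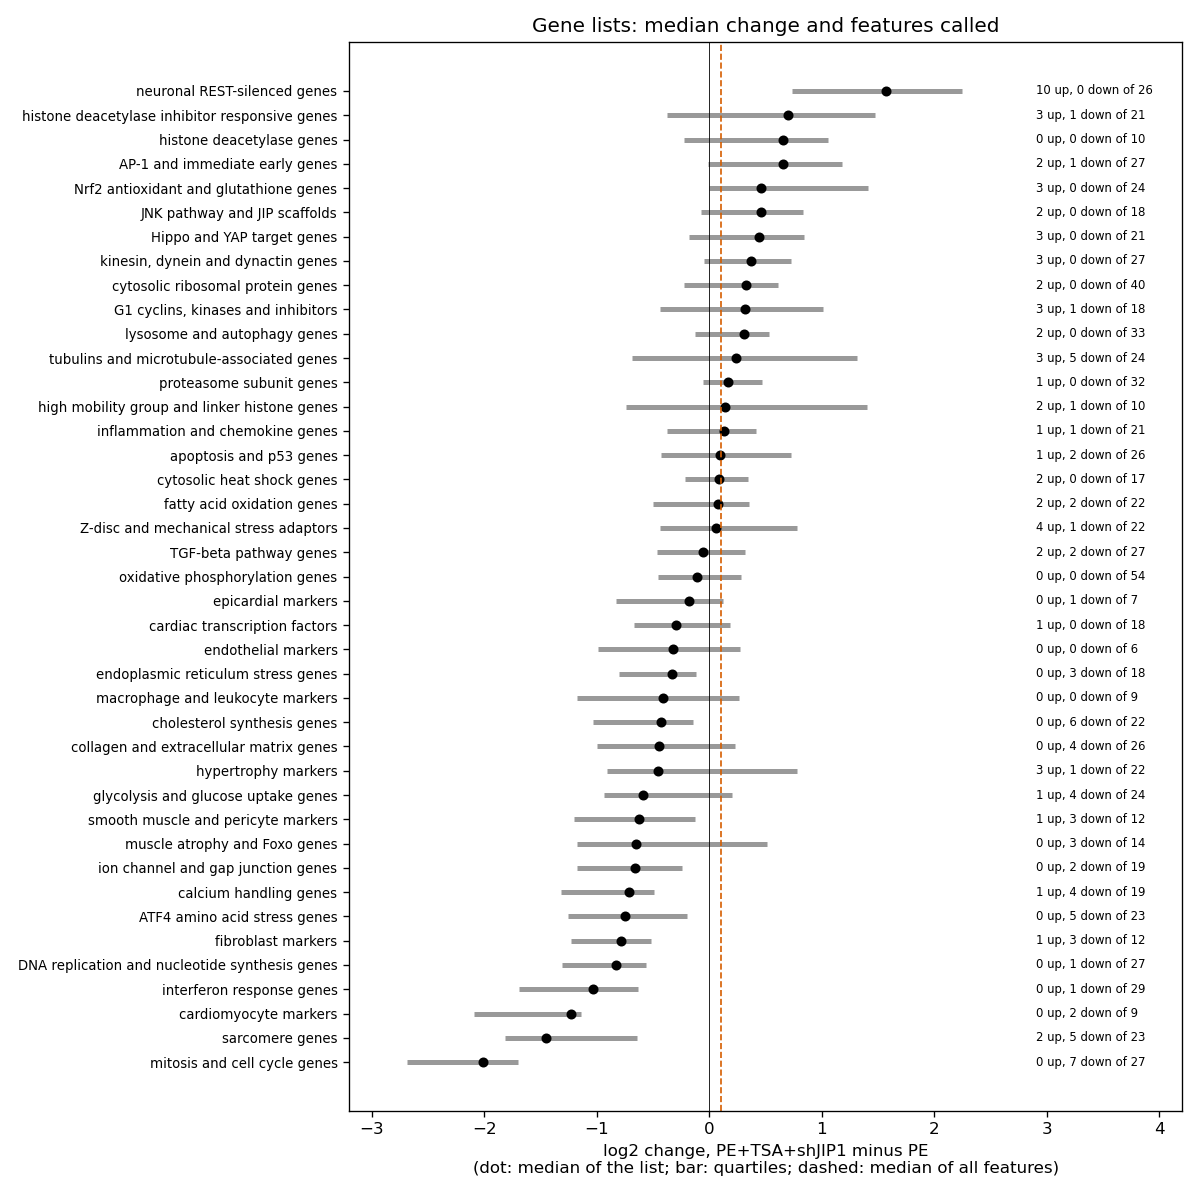
Median change of 41 gene lists with at least 5 tested features (dots, with quartiles as bars; x axis, difference in log2(FPKM + 1) between PE+TSA+shJIP1 and PE), with the number of features called. The dashed line is the median of all features tested (0.10), and the ends of the order are the neuronal list (1.57) and the mitosis list (-2.01). The neuronal value covers tested features only, and those low under PE passed the filter through the libraries with TSA.

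Genes of mitosis were the lowest list: all 27 tested had a negative change, 21 of them without overlap between the groups, and 7 were called (median -2.01). Of all 10359 features tested, 4599 had a negative change, 26.7% lay lower without overlap and 4.16% were called lower. Over libraries the median level on the log2(FPKM + 1) scale was 3.89 and 2.84 under PE, 2.21 and 1.49 under PE+TSA, and 1.27 and 0.85 under PE+TSA+shJIP1. Prc1, which bundles the microtubules of the midzone, was at 56.4 and 23.3 FPKM under PE, 11.8 and 8.05 under PE+TSA, and 2.55 and 3.78 under PE+TSA+shJIP1 (-3.18 ± 0.45, limma adjusted p = 0.0194). Top2a, the topoisomerase of dividing cells, was at 31.6 and 11.1, 6.39 and 2.34, and 1.27 and 0.719, which is 21.5-fold lower than PE (-3.33 ± 0.59, limma adjusted p = 0.0289). Tpx2, a spindle assembly factor, went from 19.4 and 13.6 to 1.01 and 1.62 (-2.91 ± 0.36, limma adjusted p = 0.0157). PE replicate 2 was the lower PE library in these genes and still stood above both PE+TSA+shJIP1 libraries. Cdc20 fell by 2.52, Hmmr by 2.35, Kif20a by 2.17 and Kif11 by 1.88, while Mki67 was at 30.3 and 11.1 against 4.72 and 4.54 (-1.79, limma adjusted p = 0.0822). Tacc3, a spindle protein outside the list, fell by 3.31. Without PE replicate 2 the list's median was -2.67, with 1 feature called. Of 27 tested genes of DNA replication and nucleotide synthesis 25 had a negative change and 1 fell, a share below the 4.16% of all features called lower. It was Tk1, thymidine kinase (-2.43 ± 0.34, limma adjusted p = 0.0184), and the list had a median of -0.83 (-0.51 without PE+TSA+shJIP1 replicate 2). Of 18 tested G1 cyclins, kinases and inhibitors 3 rose, namely Ccnd2, Cdkn1c and Cdkn2a (2.07), and Cdk2 fell by 1.46. Cdkn2a was at 0.34 and 0 under PE and passed the filter through the libraries with TSA. The median of that list, 0.32, was -0.05 without PE replicate 2.

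**Figure D4:**
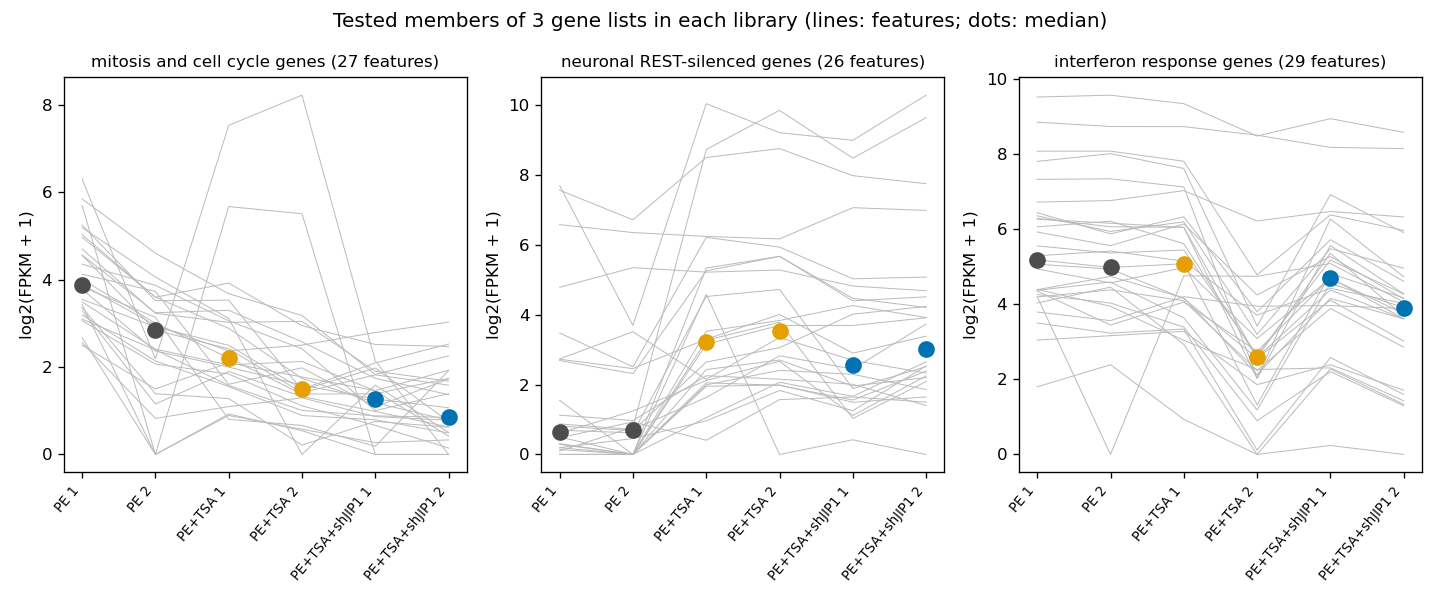
Level (y axis, log2(FPKM + 1)) of each tested feature (lines) and their median (dots) in 6 libraries for the mitosis list (27 features), the neuronal list (26) and the interferon list (29). The mitosis medians step down from 3.89 in PE replicate 1 to 0.85 in PE+TSA+shJIP1 replicate 2, the neuronal medians are higher in the 4 libraries with TSA, and the interferon median is lowest in PE+TSA replicate 2 (2.58). Neuronal features low under PE were tested only because of their level in the libraries with TSA.

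Among 27 tested kinesin, dynein and dynactin genes 3 rose and none fell (median 0.37), against 4.11% and 4.16% of all features. JIP1 binds kinesin-1, but the rises Kif5c and Kif5a belong to the neuronal list too. Both were under 1 FPKM in PE and passed the filter through the libraries with TSA, so the count describes single genes. Kif5c, a neuronal heavy chain of kinesin-1, was at 0.756 and 0.603 FPKM under PE, 5.25 and 7.31 under PE+TSA, and 15.2 and 17.8 under PE+TSA+shJIP1 (3.38 ± 0.30, limma adjusted p = 0.0108). Kif5a, the other neuronal heavy chain, was at 0.617 and 0.536, 21.9 and 25.4, and 2.69 and 4.7 (1.54 ± 0.33, limma adjusted p = 0.0436). The 3 groups did not overlap in either gene, and the order of the groups with TSA was opposite: the difference from PE+TSA was 1.28 for Kif5c (limma adjusted p = 0.151) and -2.42 for Kif5a (limma adjusted p = 0.0628), neither of them called. Kif3a, a kinesin-2 motor, rose by 1.38. The light chain gene Klc1 did not pass (0.28, limma adjusted p = 0.384). Of 24 tested tubulin and microtubule-associated genes 3 rose and 5 fell, against 4.11% and 4.16% of all features. The list's median of 0.24 changed sign without PE replicate 2 (-0.04). Stmn4, among the rises, was at 0 in both PE libraries and passed the filter through the libraries with TSA. Tubb4a, a beta-tubulin of neurons and glia, was at 2.14 and 1.98 under PE, 61.1 and 80.6 under PE+TSA, and 38.1 and 41.8 under PE+TSA+shJIP1 (3.74 ± 0.23, limma adjusted p = 0.00464). The widely expressed tubulins went down: Tubb4b fell by 1.46, Tuba1b by 1.40, Tubb6 by 1.13 and Tubb5 by 1.06, and the muscle-expressed microtubule-associated gene Map4 fell by 1.11.

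Genes of glucose use were lower in part, with 4 of 24 tested falling and 1 rising (median -0.59). Over all features 4.16% were called lower and 4.11% higher, which applies to each list of this paragraph. Eno3, the muscle enolase, was at 54.1 and 52.6 FPKM under PE, 11.2 and 10.5 under PE+TSA, and 7.27 and 8.55 under PE+TSA+shJIP1 (-2.61 ± 0.21, limma adjusted p = 0.0103). The insulin-responsive glucose transporter Slc2a4 went from 14.5 and 11.4 to 2.46 and 2.39 (-2.02 ± 0.29, limma adjusted p = 0.0192). Pdk2, a kinase that inhibits pyruvate dehydrogenase, fell by 1.69 and the basal transporter Slc2a1 by 1.28, while Pkm rose by 1.28. Fatty acid oxidation genes went both ways (2 of 22 rose, 2 fell, median 0.08 with no stable sign): Cpt1b, the muscle gate for fatty acid entry into mitochondria, fell by 1.67 and Acsl1 by 1.19, whereas Hadh rose by 1.70 and Hadhb by 1.01. None of 54 tested oxidative phosphorylation genes was called by limma (median -0.11, 0.13 without PE replicate 1 and -0.32 without PE replicate 2), and Ndufb10 had the smallest p (1.24, limma adjusted p = 0.0587). Of 22 tested cholesterol synthesis genes 6 fell and none rose (18 had a negative change, median -0.43, and -0.66 without PE+TSA+shJIP1 replicate 1). Cyp51, which demethylates lanosterol, went from 119 and 113 to 35.6 and 26.3, with 59.3 and 57 under PE+TSA (-1.89 ± 0.21, limma adjusted p = 0.0143). Msmo1 fell by 1.81, Srebf1 (a master regulator of lipid synthesis) by 1.70 and Fdps by 1.40.

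Genes of the ATF4 response to amino acid shortage fell in 5 of 23 tested and rose in none (median -0.75). Over all features 4.16% were called lower and 4.11% higher. Shmt2, a mitochondrial enzyme of serine and glycine metabolism, was at 66.4 and 65.6 FPKM under PE, 18.6 and 18.7 under PE+TSA, and 15.5 and 10.7 under PE+TSA+shJIP1 (-2.27 ± 0.23, limma adjusted p = 0.0127). Atf5 fell by 2.33, Trib3 by 1.61, the amino acid transporter subunit Slc3a2 by 1.16 and Vldlr by 0.94. Chaperones of the endoplasmic reticulum fell in 3 of 18 tested, against 4.16% of all features (median -0.34). Pdia4 fell by 1.86, Hyou1 by 1.75 and Hsp90b1 by 1.10. Of 26 tested apoptosis and p53 features Gadd45g rose, Bak1, a pore-forming death effector, fell by 1.65, and Bcl2l1, which opposes it, fell by 1.26 (median 0.10). Of 33 tested lysosome and autophagy features 2 rose, Ctsl1 (cathepsin L) by 1.45 and Atg12 by 1.39 (median 0.31). Of 40 tested cytosolic ribosomal protein features 2 rose, Rpl34 by 1.44 and Rps12 by 2.92, the latter from 3 and 0 to 12.4 and 16 (median 0.33). Of 32 proteasome subunit features Psmb7 listing 1 of 2 rose by 0.91 (median 0.16). The shares called in the lysosome, ribosomal and proteasome lists are below the 8.27% of all features, as are those of the DNA replication, interferon, cardiac transcription factor, oxidative phosphorylation, histone deacetylase, endothelial, macrophage, Schwann cell and erythroid lists. In other lists with few calls, the counts describe single genes and not the list.

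The largest falls included genes of the extracellular space, the membrane and the actin cytoskeleton. Wfdc1, a secreted protease-inhibitor-like protein, was at 27.8 and 66.8 FPKM under PE, 4.4 and 7.14 under PE+TSA, and 0.894 and 2.36 under PE+TSA+shJIP1, 29.1-fold lower than PE (-4.13 ± 0.51, limma adjusted p = 0.0157). Krt10, a keratin, was at 27.7 and 36.7, 0.411 and 1.79, and 0.609 and 2.12, so that it was alike in both groups with TSA (-3.87 ± 0.49, limma adjusted p = 0.0158). Trim72, the membrane repair protein of striated muscle, was at 49.8 and 39.6, 11.8 and 5.4, and 3.78 and 1.27 (-3.79 ± 0.48, limma adjusted p = 0.0158). Tgfb1i1 (Hic-5), a focal adhesion adaptor, went from 153 and 142 to 11.6 and 9.86, with 62.6 and 15.4 under PE+TSA (-3.67 ± 0.59, limma adjusted p = 0.0237). Kitlg, the ligand of the receptor Kit, was at 42.5 and 42.8 under PE and 2.06 and 3.46 under PE+TSA+shJIP1, while the PE+TSA libraries were spread from 16 to 71.7 (-3.56 ± 0.64, limma adjusted p = 0.0299). Pole4 fell by 3.46 and Efnb3, an ephrin ligand, by 3.34. Acta2, smooth muscle actin, was at 988 and 886, 213 and 139, and 187 and 133 (-2.56 ± 0.29, limma adjusted p = 0.0143), again alike in both groups with TSA. Ccl4, a chemokine, was at 10.3 and 21.5 under PE and listed at 0 in the other 4 libraries (limma adjusted p = 0.0143). Mir6334 was at 49.5 and 1029 under PE and at 0 in those 4 (-7.83 ± 1.26, limma adjusted p = 0.024), and its 2 PE values lie far apart.

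Genes of the stroma and of immune signalling completed the lists. Of 26 tested collagen and extracellular matrix features 4 fell and none rose, against 4.16% and 4.11% of all features. The list's median was -0.44 (-0.14 and -0.71 without PE replicate 2 and 1). Eln (elastin) went from 18.4 and 24.2 FPKM to 3.52 and 5.04 (-2.08 ± 0.30, limma adjusted p = 0.0194). Mmp2 fell by 1.60, Sparc by 1.11 and Timp2 by 1.05. Fibroblast markers differed in direction: S100a4 fell by 2.10, Dcn (decorin) by 1.46 and Vim (vimentin) by 1.16, and Thy1 rose from 3.29 and 1.56 to 10.9 and 17.3 (2.16 ± 0.36, limma adjusted p = 0.026). Mural cell markers did too, with Cspg4 lower by 1.90, Mcam higher by 1.88 and Myh11 also called lower (limma adjusted p = 0.0416). Of 27 tested TGF-beta pathway features 2 rose and 2 fell (median -0.06), against 4.11% and 4.16% of all features, so the counts describe single genes. The rises were Ctgf and Smad3 (2.57 ± 0.58, limma adjusted p = 0.0489, with 20.8 and 4.72 under PE against 61 and 70.3). The latent TGF-beta binding proteins Ltbp2 and Ltbp1 fell by 1.89 and 1.38. Interferon response genes had a median of -1.03 (-0.61 without PE+TSA+shJIP1 replicate 2), and 26 of 29 tested had a negative change, but Gbp5 alone was called (-2.30 ± 0.43, limma adjusted p = 0.033). Of 21 tested inflammation and chemokine features, Ccl20 rose and Ccl4 fell (median 0.13). Ccl20, a chemokine for lymphocytes, was at 567 and 523 under PE, 2100.4 and 2736 under PE+TSA, and 6789 and 3653 under PE+TSA+shJIP1, 9.58-fold above the mean of PE (3.19 ± 0.37, limma adjusted p = 0.0143).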

How the data were processed

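Neonatal rat ventricular myocytes were measured by RNA sequencing in 6 libraries, 2 for each of 3 groups. The values are FPKM per gene in 1 deposited table. Its header gives no unit, and the unit was read from the size of the values. Per the submitters' processing notes, Cufflinks was a tool and rn6 a build in use, their roles unspecified. Aligner, annotation and strandedness: not given in the sources used here. Reads of paralogs or overlapping genes may be shared. Among 13843 rows there are 13556 symbols, 250 of them repeated (over 537 rows), and each row was kept as a feature (listing 1 of 2). Symbols found as current names numbered 12356, and 13315 with older names added, in RefSeq's GRCr8 gene table, which was used for names and promoters only.

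Values were put on the log2 scale from the deposited FPKM, with a pseudocount of 1 and a minimum mean of 1 FPKM. The limma model (version 3.58.1, R 4.3.3) had a mean for each of the 3 groups, took in all 6 libraries and used an intensity trend (3 residual and 3.27 prior degrees of freedom). P-values are two-sided and were adjusted by Benjamini and Hochberg over 10359 features, with a threshold of 0.05. The pipeline was tested on simulated data. Named were Mapk8ip1, the 12 largest called rises and 12 largest called falls without overlap between the groups whose higher group averaged 5 FPKM or more, up to 3 called members per list (or the smallest p where none was called), and Nppa, Nppb, Acta1, Myh6, Myh7 and Atp2a2, in all 116 features. Further list members and genes given were chosen after their values were seen. The comparison, the 43 gene lists and the rule were chosen with earlier results of these data known. A few list members are counted but not reported here by name. Gene lists overlap and had no test of their own. The 16 alternatives covered pseudocount, filter, scaling, prior, weights, pairing, samples and repeated symbols.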

Additional observations from a re-analysis of the deposited data

How the results depend on the processing

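In place of 857 calls, 374 were made without the filter on low values (322 of them among the 857) and 4 when only the 4 libraries compared were fitted. Leaving out 1 library gave 4 to 941 calls. Both of the latter kinds of fit have 2 residual degrees of freedom in place of 3. The highest value came without PE replicate 1, the shallower PE replicate 2 then standing alone. Under the other settings the count was 596 (array weights) to 1215 (without repeated symbols and small RNAs). Of 104 named calls, 3 were kept with only the 4 libraries, 78 without PE replicate 1, 6 without PE replicate 2, and 3 or 4 without any 1 of the other 4 libraries, and none of the 104 changed sign in any setting run. The groups lay apart in all of these calls, so leaving out a library could not have changed a sign. Replicate differences correlated at 0.0735, 0.0396 and 0.122 between groups. With a single difference per group, these values cannot show whether replicate numbers pair the samples, and the labels do not say. With the replicate number as a block the count was 1063 (497 higher, 566 lower), of which 792 were shared with the 857. The change of Mapk8ip1 stayed negative and uncalled, from -0.13 to -0.85 without 1 library. Uncalled genes near 0 changed sign: Jun (listing 1 of 2) was -0.033 with trimmed-mean scaling and -0.28 to 0.34 without 1 library, Mapk8 was -0.0226 to 0.41 and Cdkn1a -0.48 to 0.10 without 1 library. Against PE+TSA, 30 calls became 0 without the filter (1898 at an unadjusted p under 0.05, limma), 2 without the trend and 94 with array weights. Of 20 named calls there, 0 or 1 was kept when a library was left out, and none changed sign. There too the groups lay apart in each named call, so leaving out a library could not have changed a sign. The cause of the lost calls was not tested. Depth in reads is unknown, and PE replicate 2 limits what can be said of low genes.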
